A study of Mus musculus with 21 samples.

Results

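The genes described here are 44 mouse genes of the cell division cycle, chosen by symbol: 12 regulators of the G1 phase, 11 genes of DNA replication (S phase) and 21 genes of the G2 phase and mitosis. Each of the 44 matched 1 Ensembl gene ID among the 55487 IDs counted in every library, and all 44 passed the filter on low counts in both sets of libraries. RNA was sequenced from embryoid bodies, the aggregates that mouse embryonic stem cells form when they differentiate, collected on day 4 and sorted with antibodies into cells carrying both PDGFRalpha and FLK1 (DP) or FLK1 without PDGFRalpha (SP). The reporter-line set came from stem cells with the reporters T-GFP and Etv2-tdTomato (TGET), and each gate was divided by tdTomato, which gave DP Etv2-negative, DP Etv2-positive, SP Etv2-negative and SP Etv2-positive groups. A second set consisted of A2lox.Cre wildtype (WT) cells from the DP and the SP gate, and of SP cells from iETV2, a line whose Etv2 transgene was switched on with doxycycline at 2 µg/ml from day 2.5 (iEtv2). With 3 libraries a group, the 7 groups gave 21 libraries. All lines had been kept on irradiated mouse fibroblast feeders before differentiation. The iEtv2 and WT groups differ in cell line as well as in doxycycline, and the labels do not say whether WT cells received it, so these cannot be told apart. The labels do not say whether a line was 1 clone or whether replicates were separate cultures, and p-values then measure the spread between these libraries, which may be technical.

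As background, cells pass from G1 into S phase when D-type cyclins with Cdk4 or Cdk6, and then E-type cyclins with Cdk2, phosphorylate the retinoblastoma protein and release E2F transcription factors. Cdkn1a (p21) and Cdkn1b (p27) bind and restrain cyclin-kinase complexes, and Cdkn2c (p18) binds Cdk4 and Cdk6. E2F factors switch on the replication genes, among them the Mcm helicase subunits, while the genes of G2 and mitosis are switched on later, largely through CHR and CCAAT promoter elements. Pluripotent cells and early mesoderm divide fast, with a short G1 phase.

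Counts assigned to genes came to 22406153 to 32777143 per library, and levels are given as CPM, counts scaled to a library of 1000000. A count of 0 allows up to 3 counts, 0.0915 to 0.134 CPM, for counting error only. Pseudogenes held 12.2 to 14.4% of all counts among reporter-line libraries but 0.549 to 0.636% among the others, so levels are compared only within a set. The ribosomal RNA share was 1.40% for replicate 2 of SP Etv2-negative and 1.28% for replicate 3 of SP Etv2-positive cells. It stayed at or below 0.432% for the remaining reporter-line libraries and was 0.682 to 2.28% for the second set. The gates held for PDGFRalpha: Pdgfra had log2 fold changes of -2.29 and -2.00 in SP over DP cells of the reporter line and -2.99 in WT. Kdr, the gene of FLK1, had 587 ± 42.9 CPM in DP Etv2-negative and 437 ± 96.3 CPM in DP Etv2-positive cells. It had 526 ± 15.2 CPM in SP Etv2-negative and 604 ± 25.8 CPM in SP Etv2-positive cells. In the second set the group means of Kdr were 858 to 892 CPM. Etv2 was higher with the reporter (log2 fold change 1.53 in DP and 1.74 in SP) and in iEtv2 over WT SP cells (1.35). Library sizes were adjusted with TMM factors, ± is the standard deviation over 3 libraries for CPM and the standard error for log2 fold changes, and a gene was called when its edgeR quasi-likelihood p, adjusted by Benjamini-Hochberg over all genes tested in a set, was below 0.05. In bulk RNA, fewer cells in a phase and less RNA per cell cannot be told apart.

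Across the 7 comparisons, 94 of 308 member results were called, and 38 of the 44 members were called at least once. The share of all genes called ran from 3.97 to 50.8% over the same comparisons. How many of all genes were called at least once was not computed. Mitotic genes such as Aurka, Plk1 and Cdk1 were lower in SP than in DP cells without the reporter, and within SP cells they were higher with the reporter than without it. The largest differences lay in G1 genes between iEtv2 and WT SP cells, where D-type and E-type cyclins and Cdk6 were lower and Cdkn1a and Cdkn1b higher. The 6 members called in none of the comparisons were Mki67, Bub1b, Cenpe, Mcm5, Cdt1 and Cdkn2c. The 5 comparisons within the reporter line share their 4 groups, and both comparisons of the second set share WT SP, so their results are not independent of each other.

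**Figure D1:**
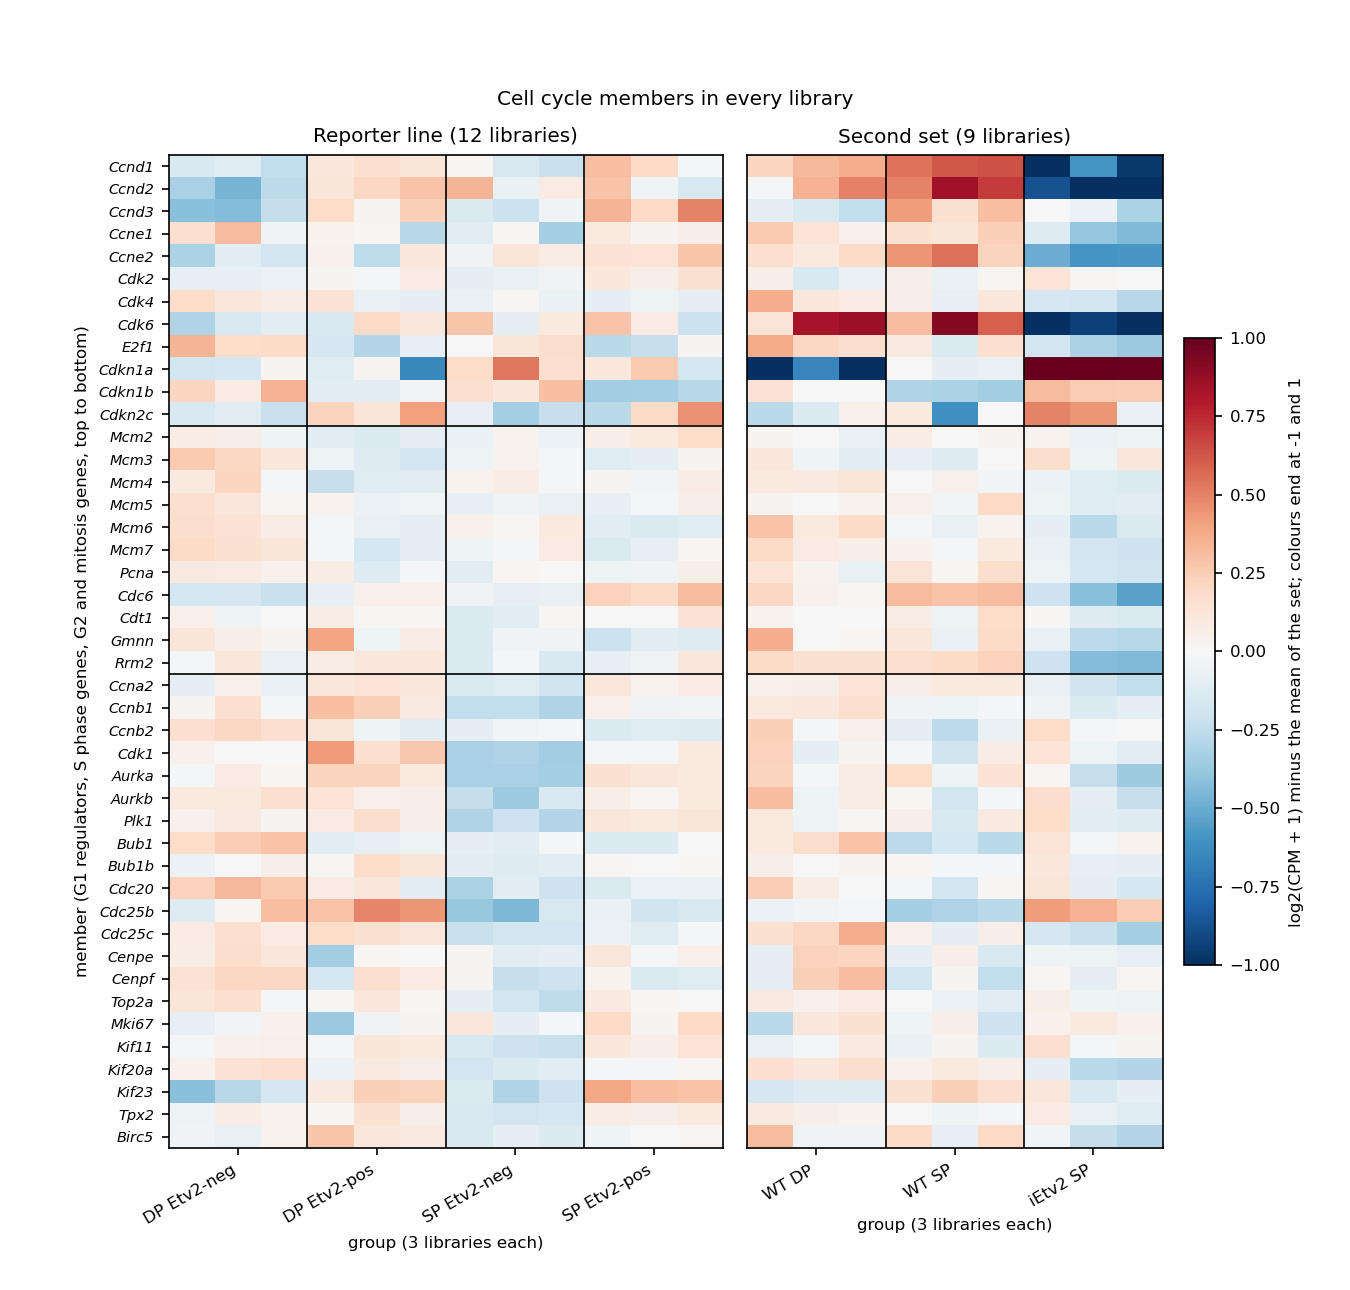
Level of each of the 44 members (rows, in the order G1, S phase, G2 and mitosis) in every library (columns, 3 per group), as log2(CPM + 1) minus the mean of the gene over its set; colours end at -1 and 1. Ccnd1, Ccnd2, Cdk6 and Cdkn1a in iEtv2 SP cells and Cdkn1a in WT DP cells show strong colours, and many mitotic rows are blue in the 3 SP Etv2-negative libraries.

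The members' calls are read against those of all genes tested in the same comparison. In DP cells 10 members were higher and 10 lower with the reporter, while 30.7% of 17690 genes were called, 16% higher and 14.7% lower. The groups did not overlap for 22 members, against 42% of genes. The 10 higher became 5 when DP Etv2-negative replicate 1 was left out. In SP cells 14 members were higher and 2 lower with the reporter, against 25.5% of genes called, 13.1% higher and 12.4% lower. The groups did not overlap for 23 members, against 44.8% of genes, and the 2 lower (Mcm6 and Cdkn1b) were 1 without SP Etv2-negative replicate 3 or SP Etv2-positive replicate 2.

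Between the gates, 1 member was higher and 16 were lower in SP than in DP cells without the reporter, where 10.9% of genes were called, 6.1% higher and 4.84% lower. Groups did not overlap for 32 members, against 32.1% of genes. The 16 became 9 without DP Etv2-negative replicate 2. With the reporter 2 members were higher and 6 lower in SP than in DP cells, against 13.9% of genes, 6.95% higher and 6.94% lower, and 14 members did not overlap, against 32.4% of genes. The 6 became 1 without SP Etv2-positive replicate 1 or 2 and 3 without SP Etv2-positive replicate 3, DP Etv2-positive replicate 1 or DP Etv2-negative replicate 1, and the 2 became 0 without SP Etv2-positive replicate 3. In WT cells 3 were higher and 3 lower in SP than in DP, against 15.8% of 16288 genes, 9.08% higher and 6.76% lower, and 18 did not overlap, against 32.1% of genes.

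In iEtv2 over WT SP cells 4 members were higher and 17 lower, 47.7% in all, while 50.8% of genes were called, 26.4% higher and 24.4% lower. Groups did not overlap for 25 members, against 60.4% of genes. The 17 became 10 without WT SP replicate 1 or 3 or iEtv2 SP replicate 2 or 3. The effect of the reporter differed between SP and DP for 6 members, more positive in SP for 5 and less for 1, against 3.97% of genes, 1.52% and 2.45%. Over the 12 fits without 1 library the 5 ranged from 0 to 6.

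**Figure D2:**
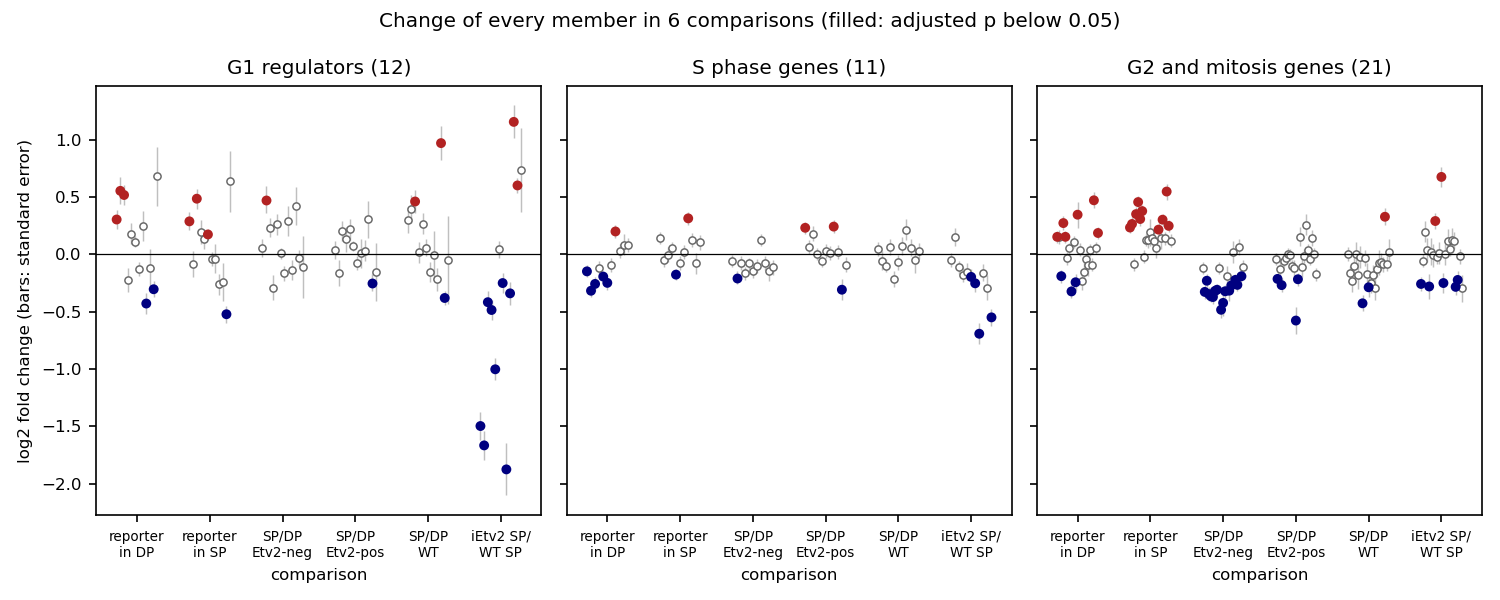
Log2 fold change (vertical axis) of every member in 6 comparisons (horizontal axis), in panels for the 12 G1, 11 S phase and 21 G2 and mitosis genes; bars are standard errors, red and blue points were called higher and lower, open points were not called. G1 genes in iEtv2 over WT SP cells span -1.88 to 1.16, and 15 of 21 mitotic points are blue in SP over DP cells without the reporter.

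Promoter sequence, which the choice of genes did not use, differed between the 3 classes. In RefSeq's table of start sites (GRCm38.p6), 34 of the 44 members had a window of 300 bases, from 250 before to 50 after an annotated start. Each window was searched on both strands for the CHR (cell cycle genes homology region) core TTTGAA, the CCAAT box and the E2F site as TTGGCGC or its variants with TTCCCGC, with TTGCCGC or with TTCGCGC, counted together. An E2F match can overlap another on the opposite strand or a CCAAT match. The CHR core was in 11 of 16 mitotic genes (68.8%), 1 of 9 S phase genes and 0 of 9 G1 genes, and in 20.2% of the 27025 genes of the table. CCAAT was in 15 of 16 mitotic, 7 of 9 S phase and 4 of 9 G1 genes, against 41.1% of all genes. E2F sites were in 3 of 16 mitotic, 7 of 9 S phase and 2 of 9 G1 genes, against 10.9% of all genes. A match describes these letters only and is not a measured binding site.

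The 200 bases before the start are shown for 4 mitotic genes with a CHR core in that stretch, 2 S phase genes with E2F sites and 1 G1 inhibitor gene without CHR or E2F matches, because the classes differed in these letters. They are Kif11 (chr19:37376182-37376381, plus strand), Top2a (chr11:99024190-99024389, minus strand), Mki67 (chr7:135716380-135716579, minus strand), Ccnb2 (chr9:70421555-70421754, minus strand), Mcm6 (chr1:128359706-128359905, minus strand), Mcm5 (chr8:75109309-75109508, plus strand) and Cdkn1b (chr6:134920201-134920400, plus strand), all in GRCm38.p6, and no annotated exon overlaps them. Capitals mark CHR, CCAAT and E2F matches on either strand, so that TTCAAA is a CHR core, ATTGG is the CCAAT box and GCGCCAA is an E2F site, each read from the opposite strand. Matches outside the stretch shown are not printed, among them a further CHR match of Ccnb2 at base 5 after the start.
Kif11: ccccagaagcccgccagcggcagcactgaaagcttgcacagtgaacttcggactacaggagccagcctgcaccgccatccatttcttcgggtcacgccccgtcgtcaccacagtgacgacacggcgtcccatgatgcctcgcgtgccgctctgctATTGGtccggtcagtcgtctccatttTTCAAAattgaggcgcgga
Top2a: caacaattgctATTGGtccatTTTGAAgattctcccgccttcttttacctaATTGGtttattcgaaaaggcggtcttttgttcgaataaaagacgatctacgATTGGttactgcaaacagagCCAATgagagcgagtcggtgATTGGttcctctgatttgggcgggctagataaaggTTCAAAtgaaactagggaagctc
Mki67: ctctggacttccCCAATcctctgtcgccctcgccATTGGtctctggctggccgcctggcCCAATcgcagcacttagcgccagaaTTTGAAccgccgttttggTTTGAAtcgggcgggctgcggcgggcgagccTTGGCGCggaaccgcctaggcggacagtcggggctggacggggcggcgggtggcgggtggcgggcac
Ccnb2: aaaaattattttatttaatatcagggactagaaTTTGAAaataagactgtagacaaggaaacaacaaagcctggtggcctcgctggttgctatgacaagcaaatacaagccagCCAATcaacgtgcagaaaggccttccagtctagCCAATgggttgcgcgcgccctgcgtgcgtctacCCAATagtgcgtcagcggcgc
Mcm6: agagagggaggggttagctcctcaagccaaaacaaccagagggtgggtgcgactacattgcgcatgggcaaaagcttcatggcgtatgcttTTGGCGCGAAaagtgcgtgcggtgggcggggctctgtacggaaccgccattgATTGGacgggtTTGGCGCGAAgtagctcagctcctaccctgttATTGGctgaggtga
Mcm5: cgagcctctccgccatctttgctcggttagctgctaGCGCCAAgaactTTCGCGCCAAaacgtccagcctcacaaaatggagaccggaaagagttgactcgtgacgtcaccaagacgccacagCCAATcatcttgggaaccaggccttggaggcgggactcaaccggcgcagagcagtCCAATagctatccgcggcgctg
Cdkn1b: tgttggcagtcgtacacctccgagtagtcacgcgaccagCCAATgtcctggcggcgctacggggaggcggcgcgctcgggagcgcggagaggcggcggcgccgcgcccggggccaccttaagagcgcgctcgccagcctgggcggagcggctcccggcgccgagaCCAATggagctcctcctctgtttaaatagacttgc
Kif11 encodes the motor that separates spindle poles, Top2a untangles sister chromatids, Mki67 coats mitotic chromosomes and Ccnb2 activates Cdk1; Mcm5 and Mcm6 are subunits of the replicative helicase. Of the 11 mitotic genes with a CHR core, 8 were lower in SP over DP cells without the reporter, beside 4.84% of all genes. Of the 5 with a window and no core, 3 were lower. Ccna2, Aurkb, Cdc25c, Kif20a and Tpx2 had no window, and all of these but Ccna2 were lower there.

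**Figure D3:**
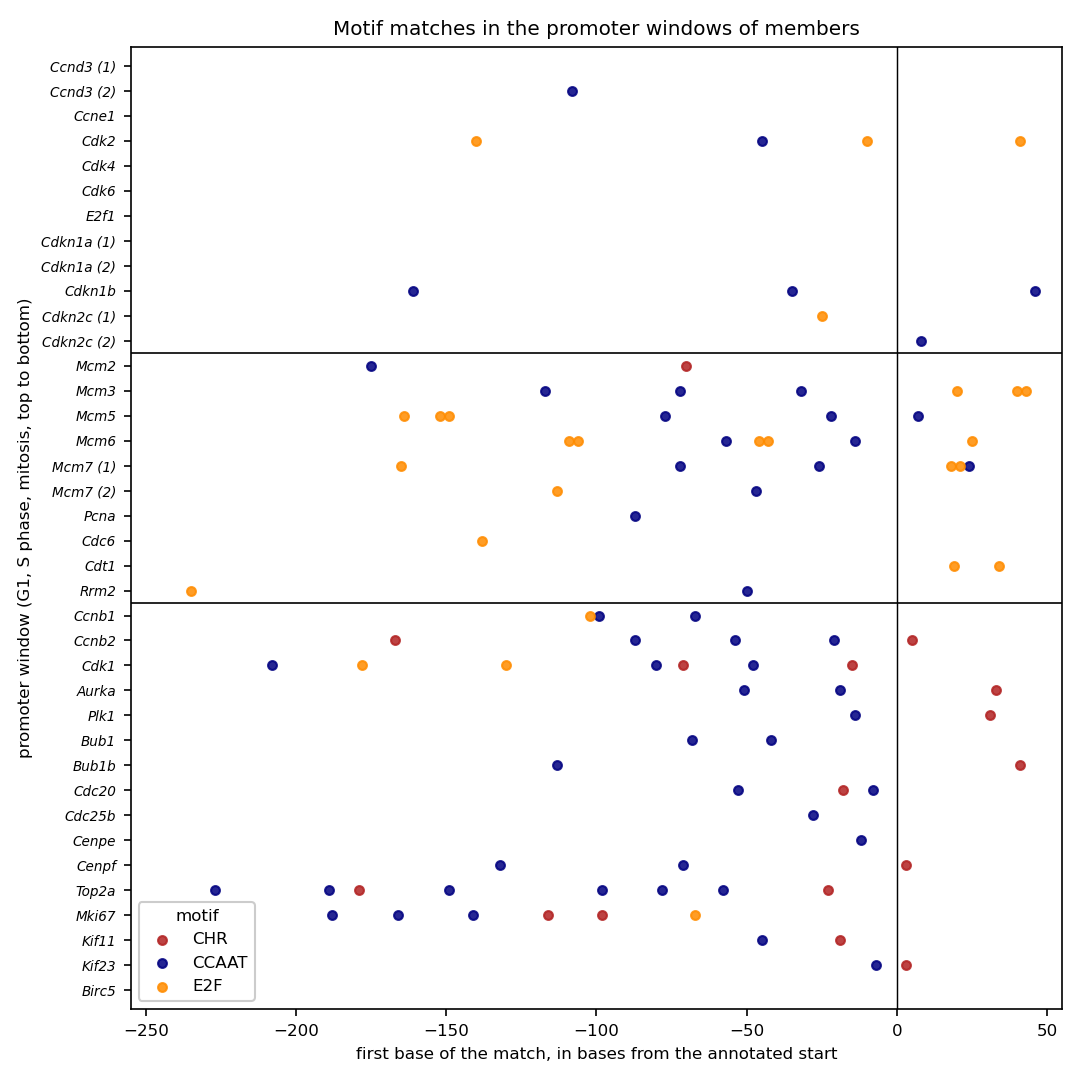
Position of the first base of each motif match (horizontal axis, bases from the annotated start at 0) in the promoter windows of members (rows; a number in brackets marks alternative starts). CHR matches (red) lie in mitotic rows except that of Mcm2, and E2F matches (orange) lie mainly in the S phase rows.

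Among the G1 genes, the D-type cyclins and their kinase Cdk6 were lower in iEtv2 than in WT SP cells. Ccnd1, the D-type cyclin most tied to growth factor signals, had 66.8, 97.8 and 75.6 CPM in the iEtv2 SP libraries and 217, 229 and 232 CPM in WT SP. The groups did not overlap, and the difference was 2.82-fold, a log2 fold change of -1.50 ± 0.12 (edgeR adjusted p = 2.81e-06). Ccnd2, a D-type cyclin of many embryonic tissues, had 53.6, 48.7 and 48.9 CPM in iEtv2 SP and 140.3, 178 and 162 CPM in WT SP. It was 3.17-fold lower, with a log2 fold change of -1.67 ± 0.13 (edgeR adjusted p = 2.45e-06). Every iEtv2 library lay below every WT SP library for both cyclins.

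Cdk6, a kinase partner of the D-type cyclins, had 15.1, 23.6 and 20.1 CPM in iEtv2 SP against 57.5, 88.3 and 70.4 CPM in WT SP and 50.6, 82.5 and 84.6 CPM in WT DP. Its WT libraries spread widely and still did not overlap the iEtv2 ones. It was 3.67-fold lower, with a log2 fold change of -1.88 ± 0.23 (edgeR adjusted p = 5.66e-05). Cdk4, the other partner, had 489 ± 19.7 CPM in iEtv2 and 582 ± 40.8 CPM in WT SP, a log2 fold change of -0.25 ± 0.09 (edgeR adjusted p = 0.0339). That call was lost without WT SP replicate 1 or 3, without any 1 of the 3 iEtv2 SP libraries, or when libraries were scaled by their totals alone, with adjusted p up to 0.137. Per kilobase of merged exons, Cdk4 stood at 179 ± 12.6 CPM per kb and Cdk6 at 5.15 ± 1.11 CPM per kb in WT SP, and at 151 ± 6.08 and 1.40 ± 0.306 CPM per kb in iEtv2 SP. Cdk4 was the more abundant of the pair in all 7 groups.

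Ccnd3, the third D-type cyclin, differed by less. Its libraries had 132, 127 and 106 CPM in iEtv2 SP, 177, 147 and 164 CPM in WT SP and 124, 119 and 111 CPM in WT DP. WT SP was the highest group, and the iEtv2 and WT DP ranges overlapped. The log2 fold change was -0.42 ± 0.10 (edgeR adjusted p = 0.00412) for iEtv2 over WT SP and 0.46 ± 0.10 (edgeR adjusted p = 0.0087) for WT SP over DP. Per kilobase, Ccnd1, Ccnd3 and Ccnd2 had levels of 48.0 ± 1.74, 18.5 ± 1.72 and 17.0 ± 2.01 CPM per kb in WT SP, where the latter pair lay within their spread. In iEtv2 SP the levels were 17.0 ± 3.39, 13.9 ± 1.58 and 5.36 ± 0.300 CPM per kb, with Ccnd1 and Ccnd3 within their spread and Ccnd2 below both. The merged exons used here span 4709, 8775 and 9409 bases for Ccnd1, Ccnd3 and Ccnd2. Their longest transcripts have 3740, 3858 and 6330 bases, so how the 3 genes stand to each other depends on the length used.

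The E-type cyclins, which activate Cdk2 at the start of S phase, were also lower in iEtv2 SP cells. Ccne2 had 20.7, 19.2 and 19.4 CPM in iEtv2 SP against 40.4, 43.7 and 34.6 CPM in WT SP, without overlap. It was 2.00-fold lower, with a log2 fold change of -1.0 ± 0.09 (edgeR adjusted p = 9.41e-06). Ccne1 had 87.3, 73.1 and 70.3 CPM in iEtv2 SP and 106, 104 and 113 CPM in WT SP, a log2 fold change of -0.49 ± 0.09 (edgeR adjusted p = 0.0011). E2f1, a transcription factor of replication genes, was lower by a smaller amount, with a log2 fold change of -0.34 ± 0.10 (edgeR adjusted p = 0.0158). The E2f1 call was lost without WT SP replicate 1 or 3 or iEtv2 SP replicate 2 or 3, with adjusted p up to 0.0828. Cdk2 was not called, with 105 ± 5.57 CPM in iEtv2 and 102 ± 4.63 CPM in WT SP.

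The kinase inhibitors Cdkn1a and Cdkn1b differed in the opposite direction. Cdkn1a, a p53 target gene, had 12.8, 16.5 and 9.79 CPM in WT DP, 26.6, 24.8 and 25.3 CPM in WT SP and 57.5, 59.7 and 53.8 CPM in iEtv2 SP. The 3 groups were ordered without overlap. WT SP over DP had a log2 fold change of 0.97 ± 0.15 (edgeR adjusted p = 0.00149) and iEtv2 over WT SP one of 1.16 ± 0.14 (edgeR adjusted p = 6.39e-05), 2.23-fold. Cdkn1b had 91.5, 82.7 and 82.8 CPM in WT DP, 66.9, 66.0 and 64.5 CPM in WT SP and 103, 98.4 and 97.9 CPM in iEtv2 SP. Here WT SP was lowest, with a log2 fold change of -0.38 ± 0.07 (edgeR adjusted p = 0.00284) over DP, and iEtv2 was higher than WT SP by 0.60 ± 0.06 (edgeR adjusted p = 2.49e-05). Cdkn2c had few counts, from 15 to 62 in the WT SP and iEtv2 SP libraries. It stood at 2.38, 2.25 and 1.29 CPM in iEtv2 SP and 1.57, 0.571 and 1.40 CPM in WT SP. These groups overlapped, and there was no call (log2 fold change 0.74 ± 0.36, edgeR adjusted p = 0.114). Of the 12 G1 genes, 8 were lower, 2 higher and 2 not called in iEtv2 over WT SP, 83.3% called beside 50.8% of all genes, with a median log2 fold change of -0.38 against 0.0019 over all genes. Of those 10 calls, 8 held under every setting and library left out; those of Cdk4 and E2f1 did not.

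**Figure D4:**
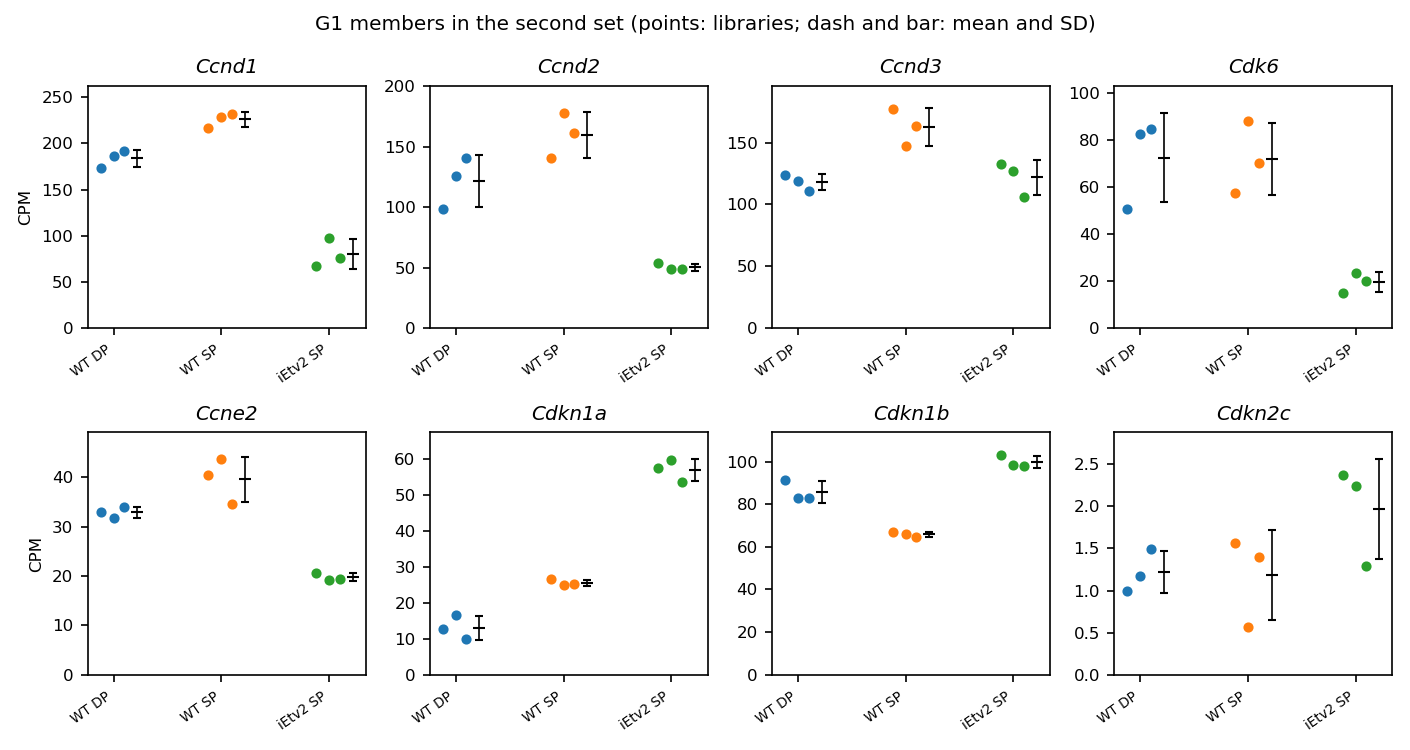
CPM (vertical axes, from 0) of 8 G1 genes in the 9 libraries of the second set, by group (horizontal axes); points are libraries, dash and bar the mean and standard deviation. Ccnd1, Ccnd2, Cdk6 and Ccne2 are lowest and Cdkn1a and Cdkn1b highest in iEtv2 SP, while the Cdkn2c groups overlap.

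Cell type markers differed widely between the same groups. All 12 endothelial markers were higher in iEtv2 SP, with summed levels of 1961 to 2369 CPM against 175 to 255 CPM in WT SP, and all 9 cardiac markers were lower, with 30.7 to 56.4 against 739 to 831 CPM. Pluripotency markers were higher for 7 of 8, with 349 to 399 against 85.7 to 130.3 CPM, and none of them was at 0. Of 10 blood markers, 7 were tested and 4 were higher and 3 lower, with sums of 373 to 385 against 204 to 261 CPM and Ptprc at 0 in WT SP. Markers of the fibroblast feeders summed to 40.3 to 70.8 against 197 to 264 CPM, with 2 of 5 tested higher, 1 lower and Lum at 0 in both groups. Endoderm markers summed to 395 to 449 against 107 to 180.2 CPM, with 3 of 6 tested higher, 1 lower and Ttr at 0 in iEtv2 SP; Sox17 is in both this list and the endothelial one. Neuroectoderm markers summed to 184 to 218 against 114 to 147 CPM, with 3 of 5 tested higher, and paraxial mesoderm markers to 20.0 to 25.6 against 40.7 to 64.2 CPM, with 5 of 8 lower and 1 higher. The part of these cell types in the G1 differences was not tested.

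In the reporter line the reporter effect was called for 5 of the 12 G1 genes in DP and 4 in SP cells, and the gate difference for 1 without and 1 with the reporter. These shares, 41.7%, 33.3%, 8.33% and 8.33%, stand beside 30.7%, 25.5%, 10.9% and 13.9% of all genes. Ccnd1 had 232, 237 and 218 CPM in DP Etv2-negative and 277, 290.1 and 281 CPM in DP Etv2-positive libraries, without overlap. In SP cells it had 261, 231 and 221 CPM without and 317, 297 and 256 CPM with the reporter, and those groups overlapped. The log2 fold changes with the reporter were 0.30 ± 0.08 (edgeR adjusted p = 0.0109) in DP and 0.29 ± 0.08 (edgeR adjusted p = 0.0181) in SP. The SP call was lost without SP Etv2-negative replicate 2 or 3 or SP Etv2-positive replicate 1 or 2. It was also lost with libraries scaled by their totals alone, and over these fits edgeR adjusted p reached 0.0864. In WT cells the SP over DP difference of Ccnd1 was not called (0.30, edgeR adjusted p = 0.112).

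Ccnd3 was higher with the reporter in both gates. It had 80.7, 79.7 and 91.3 CPM in DP Etv2-negative and 123, 109.8 and 128 CPM in DP Etv2-positive libraries. In SP cells it had 97.5, 92.8 and 106 CPM without and 137, 124 and 153 CPM with the reporter. No library with the reporter overlapped those without it in the same gate, and the log2 fold changes were 0.52 ± 0.09 (edgeR adjusted p = 0.000655) in DP and 0.49 ± 0.09 (edgeR adjusted p = 0.00169) in SP.

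For Ccnd2 the reporter effect differed between the gates. Its libraries had 211, 192 and 221 CPM in DP Etv2-negative and 287, 305 and 323 CPM in DP Etv2-positive cells, against 335, 252 and 279.7 CPM in SP Etv2-negative and 324, 257 and 237 CPM in SP Etv2-positive cells. DP Etv2-negative was the lowest group, and the SP groups overlapped. The reporter effect was 0.55 ± 0.12 (edgeR adjusted p = 0.00305) in DP and -0.08 ± 0.12 (edgeR adjusted p = 0.637) in SP, and the difference between them was -0.64 ± 0.16 (edgeR adjusted p = 0.0489). That difference stayed called in 3 of 12 fits without 1 library. They were those without DP Etv2-negative replicate 3, SP Etv2-negative replicate 2 or SP Etv2-positive replicate 1. The call was also lost without both libraries of high ribosomal RNA share, and edgeR adjusted p reached 0.139 over the fits that lost it. SP over DP without the reporter was 0.48 ± 0.12 (edgeR adjusted p = 0.0204), and its call was lost when DP Etv2-negative replicate 1 or 2 or SP Etv2-negative replicate 1 was left out, with adjusted p up to 0.0988.

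Cdkn1b was lower with the reporter in both gates. It had 81.5, 74.1 and 89.3 CPM in DP Etv2-negative and 65.0, 64.5 and 68.7 CPM in DP Etv2-positive libraries, and 78.2, 75.3 and 86.4 CPM and 54.7, 54.9 and 57.4 CPM in the SP counterparts. Groups with and without the reporter did not overlap, with log2 fold changes of -0.30 ± 0.07 (edgeR adjusted p = 0.00622) in DP and -0.52 ± 0.07 (edgeR adjusted p = 0.000342) in SP. In SP over DP cells with the reporter it gave -0.25 ± 0.07 (edgeR adjusted p = 0.0388), a call lost in 8 of 12 fits without 1 library. The call was also lost with only the compared groups and without both libraries of high ribosomal RNA share. Over these fits edgeR adjusted p reached 0.117.

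Cdkn1a had 27.2, 27.5 and 31.8 CPM in DP Etv2-negative, 28.5, 31.7 and 19.5 CPM in DP Etv2-positive, 35.6, 45.4 and 35.1 CPM in SP Etv2-negative and 33.5, 37.4 and 27.4 CPM in SP Etv2-positive libraries. Its groups with and without the reporter overlapped in both gates, and none of its reporter-line comparisons was called; SP over DP without the reporter gave 0.42 ± 0.16 (edgeR adjusted p = 0.123). Cdkn2c stood at 1.25, 1.33 and 1.14 CPM in DP Etv2-negative and 1.91, 1.72 and 2.32 CPM in DP Etv2-positive libraries, without overlap and uncalled at 0.68 ± 0.26 (edgeR adjusted p = 0.0628).

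Cdk6 and Ccne2 were not called in any comparison of the reporter line. Cdk6 ranged from 48.7 to 56.0 CPM in DP Etv2-negative, 54.3 to 68.9 CPM in DP Etv2-positive, 56.4 to 73.3 CPM in SP Etv2-negative and 51.8 to 73.8 CPM in SP Etv2-positive cells. E2f1 was lower with the reporter in DP cells, with 29.8 ± 2.19 against 40.1 ± 2.58 CPM and a log2 fold change of -0.43 ± 0.09 (edgeR adjusted p = 0.00304), and uncalled in SP cells at -0.26 ± 0.09 (edgeR adjusted p = 0.05). Cdk2 was higher with the reporter in SP cells (0.17 ± 0.05, edgeR adjusted p = 0.018). That call was lost without SP Etv2-negative replicate 1 or 2 or SP Etv2-positive replicate 1 or 3. It was also lost with upper-quartile or library-total scaling, with no filter and without both libraries of high ribosomal RNA share. Over these fits edgeR adjusted p reached 0.176. Cdk4 and Ccne1 were not called in the reporter line, with 594 ± 22.1 and 87.6 ± 10.5 CPM in DP Etv2-negative and 516 ± 9.77 and 82.1 ± 2.04 CPM in SP Etv2-positive cells. Per kilobase of merged exons, the order was Ccnd1, Ccnd2, Ccnd3 in each of the 4 groups. In SP Etv2-positive cells it ran from 61.6 ± 6.61 over 29.0 ± 4.80 to 15.7 ± 1.64 CPM per kb, each gap being larger than the spread. The size of these gaps depends on the length used.

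The S phase genes were called in both directions, depending on the comparison. Cdc6, which loads the helicase onto replication origins, was lower in iEtv2 than in WT SP cells: its libraries had 69.4, 59.9 and 55.2 CPM in iEtv2 SP, 100.4, 98.1 and 99.6 CPM in WT SP and 93.0, 82.7 and 81.0 CPM in WT DP. The iEtv2 libraries were the lowest, with a log2 fold change of -0.69 ± 0.09 (edgeR adjusted p = 8.71e-05) over WT SP. Rrm2, the regulated subunit of ribonucleotide reductase, had 331, 283 and 282 CPM in iEtv2 SP and 429, 435 and 447 CPM in WT SP, without overlap, a log2 fold change of -0.55 ± 0.07 (edgeR adjusted p = 0.000101). Pcna, the sliding clamp of DNA polymerase, and Mcm7, a helicase subunit, were lower, with log2 fold changes of -0.25 and -0.20 (edgeR adjusted p = 0.0172 and 0.0328). Both calls were lost without WT SP replicate 1 or 3 or iEtv2 SP replicate 2 or 3, and with libraries scaled by their totals alone. The Mcm7 call was also lost without WT DP replicate 2 or 3 and with no filter. Over these fits edgeR adjusted p reached 0.0782 for Pcna and 0.147 for Mcm7. Of the 11 S phase genes, 4 were lower and 7 not called, with a median of -0.18 against 0.0019 over all genes. The share called was 36.4%, all of it lower, beside 50.8% of all genes called in either direction and 24.4% called lower. Of the 11 genes 10 had negative log2 fold changes.

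In DP cells 5 S phase genes were lower and 1 higher with the reporter, 54.5% of the class beside 30.7% of all genes. Mcm3 had 338, 321 and 307 CPM with and 420.0, 404 and 380.1 CPM without the reporter, a log2 fold change of -0.32 ± 0.06 (edgeR adjusted p = 0.0013). Mcm4 had 261, 282 and 285 CPM with and 329, 356 and 305 CPM without it, a log2 fold change of -0.26 ± 0.06 (edgeR adjusted p = 0.00723). Neither pair of groups overlapped. Mcm6 and Mcm7 were also lower and had log2 fold changes of -0.19 and -0.25 (edgeR adjusted p = 0.0071 and 0.00688). These 4 calls held under every setting and library left out. The fifth, Mcm2, had 347, 342 and 350.3 CPM with and 396, 390.4 and 365 CPM without the reporter (-0.15 ± 0.05, edgeR adjusted p = 0.0452). Its call was lost in 9 of 12 fits without 1 library and with the replicate block. It was also lost with RLE scaling, no filter, only the compared groups, and without both libraries of high ribosomal RNA share. Over these fits edgeR adjusted p reached 0.153.

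Cdc6 was the S phase gene called higher with the reporter in both gates. It had 65.4, 65.7 and 63.5 CPM in DP Etv2-negative, 70.1, 76.7 and 76.8 CPM in DP Etv2-positive, 72.4, 70.0 and 70.2 CPM in SP Etv2-negative and 87.3, 84.7 and 92.4 CPM in SP Etv2-positive libraries. SP Etv2-positive was highest, and within each gate the groups with and without the reporter did not overlap, while DP Etv2-positive and SP Etv2-negative did. The log2 fold change was 0.20 ± 0.05 (edgeR adjusted p = 0.0132) in DP. The DP call was lost without DP Etv2-negative replicate 1 or 3 or DP Etv2-positive replicate 2 or 3. It was also lost with no filter and with only the compared groups, and over these fits edgeR adjusted p reached 0.0809. In SP the log2 fold change was 0.31 ± 0.05 (edgeR adjusted p = 0.00137).

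Mcm2 had 359, 384 and 361 CPM without and 393, 401 and 426 CPM with the reporter in SP cells, the reverse order from DP, and its difference between the reporter effects was 0.29 ± 0.07 (edgeR adjusted p = 0.0433). That call was kept in 1 of 12 fits without 1 library, the one without DP Etv2-negative replicate 3. Gmnn, the geminin gene that blocks relicensing of origins, had 67.8, 73.1 and 72.0 CPM in SP Etv2-positive and 104, 76.6 and 83.0 CPM in DP Etv2-positive libraries (-0.31 ± 0.09, edgeR adjusted p = 0.0398), where DP replicate 1 stood above its group. Without that library the call was lost, as it was without DP Etv2-negative replicate 1 or any 1 of the SP Etv2-positive libraries. It was also lost with only the compared groups and without both libraries of high ribosomal RNA share. Over these fits edgeR adjusted p reached 0.118. Further calls were those of Mcm2 (0.23 ± 0.05, edgeR adjusted p = 0.0118) and Cdc6 (0.24 ± 0.05, edgeR adjusted p = 0.0113), higher in SP over DP cells with the reporter and lost without SP Etv2-positive replicate 3. Mcm3 was lower in SP over DP cells without the reporter (-0.20 ± 0.06, edgeR adjusted p = 0.0425), lost in 6 of 12 fits without 1 library, and Mcm6 was lower with the reporter in SP (-0.18 ± 0.05, edgeR adjusted p = 0.0151), lost without SP Etv2-negative replicate 3 or SP Etv2-positive replicate 2. Mcm5 and Cdt1, which loads the helicase with Cdc6, were never called; group means were 496 to 557 CPM for Mcm5 and 149 to 162 CPM for Cdt1 in the reporter line. In WT SP over DP cells, edgeR called 0 of the 11 S phase genes, with 2 at an unadjusted p below 0.05 (Mcm6 and Cdc6), and DESeq2 also called 0; edgeR called 15.8% of all genes there.

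Mitotic genes were lower in SP than in DP cells without the reporter. Of 21, 15 were lower (71.4%, beside 4.84% of all genes) and 6 not called, and 19 had negative log2 fold changes; the median was -0.27 against 0.00137 over all genes. The groups did not overlap for 19 of the 21, against 32.1% of all genes. Without DP Etv2-negative replicate 2 the 15 became 9, and with SP Etv2-negative replicate 2 and SP Etv2-positive replicate 3, the libraries of high ribosomal RNA share, both left out they were also 9. Under every setting and library left out, 9 calls held: those of Aurka, Aurkb, Plk1, Cdk1, Ccnb1, Bub1, Cdc20, Kif20a and Cdc25c. The 6 lost in at least 1 of them were Cdc25b, Ccnb2, Cenpf, Kif11, Top2a and Tpx2, and the 6 not called were Ccna2, Birc5, Kif23, Mki67, Bub1b and Cenpe. The summed level of the 21 genes was 3857 to 4042 CPM in SP Etv2-negative libraries, below the 4444 to 4658 CPM of DP Etv2-negative, 4336 to 4680.3 CPM of DP Etv2-positive and 4378 to 4583 CPM of SP Etv2-positive libraries.

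The mitotic kinases show the values behind this count. Aurka, which organises spindle poles, had 82.0, 81.6 and 80.7 CPM in SP Etv2-negative libraries, 102, 109 and 104 CPM in DP Etv2-negative, 114, 111 and 110.0 CPM in SP Etv2-positive and 120.0, 119.9 and 110.1 CPM in DP Etv2-positive libraries. SP Etv2-negative libraries were the lowest without overlap. Its log2 fold change was -0.37 ± 0.05 (edgeR adjusted p = 0.000849) for SP over DP without the reporter and 0.46 ± 0.05 (edgeR adjusted p = 7.34e-05) for the reporter in SP. Plk1, a kinase needed for mitotic entry and spindle assembly, had 134, 142 and 134 CPM in SP Etv2-negative libraries, 169, 174 and 167 CPM in DP Etv2-negative, 178, 176 and 178 CPM in SP Etv2-positive and 174, 185 and 171 CPM in DP Etv2-positive libraries. Again the SP Etv2-negative group lay apart, with -0.32 ± 0.05 (edgeR adjusted p = 0.00173) for the gate and 0.38 ± 0.05 (edgeR adjusted p = 0.000249) for the reporter in SP.

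Aurkb, the kinase of the chromosomal passenger complex, had 75.0, 68.6 and 79.5 CPM in SP Etv2-negative libraries, 94.9, 94.9 and 99.0 CPM in DP Etv2-negative, 92.2, 89.4 and 94.8 CPM in SP Etv2-positive and 97.7, 91.9 and 92.2 CPM in DP Etv2-positive libraries. SP Etv2-negative was lowest without overlap, and the other 3 groups overlapped. Its log2 fold changes were -0.37 ± 0.06 (edgeR adjusted p = 0.00185) for the gate and 0.31 ± 0.06 (edgeR adjusted p = 0.00253) for the reporter in SP. Cdk1, the kinase that drives mitosis, had 136, 137 and 133 CPM in SP Etv2-negative, 175, 170.3 and 170.4 CPM in DP Etv2-negative, 168, 168 and 182 CPM in SP Etv2-positive and 229, 189.7 and 205 CPM in DP Etv2-positive libraries. DP Etv2-positive was highest and SP Etv2-negative lowest, each without overlap. The gate difference without the reporter was -0.35 ± 0.06 (edgeR adjusted p = 0.00482), and the reporter effect was 0.27 ± 0.06 (edgeR adjusted p = 0.0058) in DP and 0.35 ± 0.06 (edgeR adjusted p = 0.00199) in SP. Ccnb1, its cyclin partner, had 110.5 ± 2.30 CPM in SP Etv2-negative and 139 ± 8.75 CPM in DP Etv2-negative cells, a log2 fold change of -0.33 ± 0.06 (edgeR adjusted p = 0.00638). Kif20a and Cdc25c, a motor of cytokinesis and a Cdk1-activating phosphatase, had log2 fold changes of -0.27 ± 0.05 (edgeR adjusted p = 0.00853) and -0.32 ± 0.06 (edgeR adjusted p = 0.00386).

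**Figure D5:**
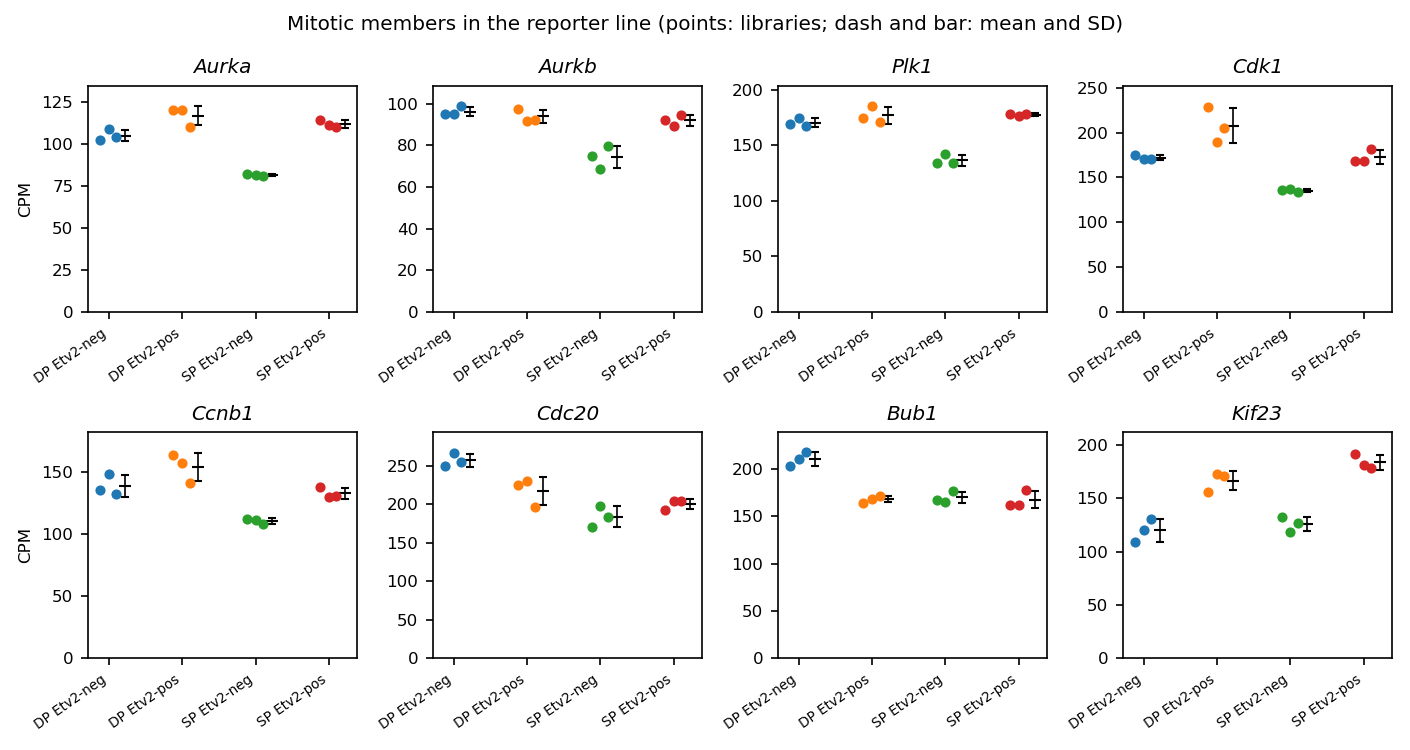
CPM (vertical axes, from 0) of 8 mitotic genes in the 12 reporter-line libraries, by group (horizontal axes); points are libraries, dash and bar the mean and standard deviation. SP Etv2-negative libraries are the lowest for Aurka, Aurkb, Plk1, Cdk1 and Ccnb1, DP Etv2-negative ones the highest for Cdc20 and Bub1, and both groups with the reporter the highest for Kif23.

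Bub1, a kinase of the spindle checkpoint, and Cdc20, the target of that checkpoint, were instead highest in DP Etv2-negative cells. Bub1 had 203, 211 and 217 CPM there, 164, 168 and 172 CPM in DP Etv2-positive, 167, 165 and 177 CPM in SP Etv2-negative and 162, 162 and 178 CPM in SP Etv2-positive libraries. The DP Etv2-negative libraries stood above the other 3 groups, which overlapped. The gate difference was -0.31 ± 0.05 (edgeR adjusted p = 0.00356) and the reporter effect in DP -0.32 ± 0.05 (edgeR adjusted p = 0.000687). Cdc20, which activates the anaphase-promoting complex, had 249.9, 267 and 255 CPM in DP Etv2-negative, 225, 230.4 and 197 CPM in DP Etv2-positive, 171, 197 and 184 CPM in SP Etv2-negative and 192, 205 and 204 CPM in SP Etv2-positive libraries. Its gate difference without the reporter was -0.48 ± 0.07 (edgeR adjusted p = 0.00104). Its reporter effect in DP was -0.24 ± 0.07 (edgeR adjusted p = 0.0166), and its call was lost when DP Etv2-negative replicate 2 or DP Etv2-positive replicate 3 was left out (adjusted p up to 0.065).

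In SP cells, 10 of 21 mitotic genes were higher with the reporter and 11 not called, a share of 47.6% beside 25.5% of all genes. The median log2 fold change was 0.19 against -0.01 over all genes. The groups of 15 of the 21 did not overlap, against 44.8% of all genes. Kif23, a motor of the central spindle and of cytokinesis, had the largest log2 fold change. It had 192, 181 and 179 CPM in SP Etv2-positive and 132, 119 and 127 CPM in SP Etv2-negative libraries, against 156, 173 and 171 CPM in DP Etv2-positive and 109, 121 and 130.4 CPM in DP Etv2-negative libraries. Groups with the reporter were above those without it in both gates, and the log2 fold changes were 0.55 ± 0.07 (edgeR adjusted p = 0.000206) in SP and 0.47 ± 0.07 (edgeR adjusted p = 0.000297) in DP. Kif11, Ccna2 (the cyclin of S phase and G2), Tpx2 (an activator of Aurka) and Top2a were higher in SP by 0.30, 0.23, 0.25 and 0.22 (edgeR adjusted p = 0.00136, 0.00586, 0.00427 and 0.0196). The Top2a call was lost without SP Etv2-negative replicate 2 or 3 or SP Etv2-positive replicate 1 or 2, and with upper-quartile or library-total scaling. Without both libraries of high ribosomal RNA share the calls of Top2a and Tpx2 were lost. Over these fits edgeR adjusted p reached 0.0908 for Top2a and 0.0513 for Tpx2. The other 8 of the 10 calls held under every setting and library left out.

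In DP cells the reporter effect on mitotic genes was mixed, with 6 higher, 3 lower and 12 not called, 42.9% of the class beside 30.7% of all genes (16% higher and 14.7% lower). The 6 were Kif23, Cdk1, Cdc25b (whose groups overlapped), Birc5 (survivin), Aurka and Ccna2 and the 3 were Bub1, Cdc20 and Ccnb2; Kif23, Cdk1 and Bub1 held under every setting. Without DP Etv2-negative replicate 1 the 6 became 2, without DP Etv2-positive replicate 2 they became 3, and without DP Etv2-negative replicate 2 the 3 became 1. The difference between the gates in the reporter effect was called for 4 mitotic genes, Aurka (0.30 ± 0.07, edgeR adjusted p = 0.0361), Aurkb (0.34 ± 0.08, edgeR adjusted p = 0.0396), Plk1 (0.32 ± 0.07, edgeR adjusted p = 0.0294) and Bub1 (0.30 ± 0.08, edgeR adjusted p = 0.0456), and 19 of 21 had positive differences. The 4 calls are 19% of the class, beside 3.97% of all genes called (1.52% higher), and 8580 of 17690 genes had positive differences. The calls of Aurka, Aurkb and Plk1 were kept in 3, 3 and 4 of 12 fits without 1 library and that of Bub1 in 0. All were lost without both libraries of high ribosomal RNA share. With no filter the calls of Aurka and Bub1 were lost, and that of Bub1 also with upper-quartile or library-total scaling. Over these fits edgeR adjusted p reached 0.189.

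Cdc25b, the phosphatase that starts Cdk1 activation at the centrosome, was below DP in SP cells for each of the 3 gate comparisons. It had 16.5, 18.4 and 22.5 CPM in DP Etv2-negative, 22.3, 25.7 and 24.9 CPM in DP Etv2-positive, 13.7, 13.0 and 16.1 CPM in SP Etv2-negative and 17.2, 15.6 and 16.1 CPM in SP Etv2-positive libraries. SP libraries lay below DP libraries of the same reporter state. SP over DP gave -0.42 ± 0.12 (edgeR adjusted p = 0.0343) without and -0.58 ± 0.12 (edgeR adjusted p = 0.00667) with the reporter. The second held under every setting. The first was lost without DP Etv2-negative replicate 2 or 3, SP Etv2-negative replicate 1 or 2 or SP Etv2-positive replicate 2. It was also lost with only the compared groups and without both libraries of high ribosomal RNA share (edgeR adjusted p up to 0.133 over these fits). In the second set Cdc25b had 18.4, 18.8 and 18.9 CPM in WT DP, 15.0, 15.3 and 15.7 CPM in WT SP and 26.0, 24.7 and 22.9 CPM in iEtv2 SP libraries. WT SP was lowest and iEtv2 SP highest, without overlap. WT SP over DP gave -0.29 ± 0.09 (edgeR adjusted p = 0.0437), a call lost in 8 of 9 fits without 1 library, all but that without iEtv2 SP replicate 1. The call was also lost with RLE scaling, with no filter and with only the compared groups. Over these fits edgeR adjusted p reached 0.192. The iEtv2 over WT SP difference was 0.68 ± 0.08 (edgeR adjusted p = 7.13e-05) and held under every setting and library left out.

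Besides Cdc25b, 3 mitotic genes were lower in SP over DP cells with the reporter, in all 19% of the class beside 6.94% of all genes. Cdk1 gave -0.27 ± 0.06 (edgeR adjusted p = 0.0158), Ccnb1 -0.21 ± 0.06 (edgeR adjusted p = 0.0413) and Cdc25c -0.22 ± 0.06 (edgeR adjusted p = 0.0251). The 4 became 1 without SP Etv2-positive replicate 1 or 2, where Cdc25b remained, and the Ccnb1 call was also lost without SP Etv2-positive replicate 3, DP Etv2-positive replicate 1 or 2 or DP Etv2-negative replicate 1. Bub1b, a checkpoint kinase, and Cenpe, a motor of the kinetochore, were never called, with group means of 225 to 262 and 143 to 168 CPM in the reporter line and 249 to 258 and 174 to 197 CPM in the second set.

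In WT SP over DP cells, Bub1 and Cdc25b were lower and Kif23 higher of 21 mitotic genes, a share of 14.3% called, near the 15.8% of all genes. Bub1 had 217, 229 and 248 CPM in WT DP, 169, 179.6 and 168 CPM in WT SP and 222, 201 and 208 CPM in iEtv2 SP libraries. WT SP lay below both other groups, with -0.43 ± 0.07 (edgeR adjusted p = 0.00238) over DP and 0.29 ± 0.07 (edgeR adjusted p = 0.00544) for iEtv2 over WT SP. Kif23 had 172, 182 and 173 CPM in WT SP and 137, 141 and 141 CPM in WT DP libraries, without overlap (0.33 ± 0.07, edgeR adjusted p = 0.013). Aurka had 127, 108 and 114 CPM in WT DP and 124, 106 and 120.3 CPM in WT SP libraries, with a log2 fold change of 0.00 ± 0.11 (edgeR adjusted p = 1). The groups of Aurka overlapped, as did those of Plk1 and Cdc20, and none was called. Plk1 had 166 ± 8.18 and 163 ± 15.4 CPM in WT DP and SP, a log2 fold change of -0.02 ± 0.10 (edgeR adjusted p = 0.914), and Cdc20 304 ± 26.6 and 270.1 ± 20.8 CPM, one of -0.17 ± 0.10 (edgeR adjusted p = 0.277). Whether the gate difference of the mitotic genes differs between WT and the reporter line was not tested, since the sets were fitted apart.

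In iEtv2 over WT SP cells, 5 mitotic genes were lower, 2 higher and 14 not called, with a median log2 fold change of -0.000584. The share called was 33.3%, below the 50.8% of all genes. Besides Bub1 and Cdc25b, which were higher, Ccna2 and Kif20a were lower under every setting, with log2 fold changes of -0.26 and -0.28 (edgeR adjusted p = 0.00609 and 0.00465). Aurka, Cdc25c and Kif23 were also lower, with log2 fold changes of -0.28, -0.25 and -0.22 (edgeR adjusted p = 0.0458, 0.0342 and 0.0275). These 3 calls were lost without WT SP replicate 1 or 3 or iEtv2 SP replicate 2 or 3, where 2 of the 5 remained. Without WT DP replicate 2 all 3 were lost too, without WT DP replicate 3 those of Aurka and Kif23, and without WT SP replicate 2 that of Kif23. All 3 were also lost with libraries scaled by their totals alone, and those of Cdc25c and Kif23 with no filter. Over these fits edgeR adjusted p reached 0.185 for Aurka, 0.142 for Cdc25c and 0.169 for Kif23. The iEtv2 and WT SP libraries overlapped for Aurka. Mki67 had 708 ± 15.1 CPM in iEtv2, 650.5 ± 59.9 CPM in WT SP and 684 ± 105 CPM in WT DP cells, within the spread.

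Markers of other cell types differed between the same reporter-line groups. In SP over DP cells without the reporter, 5 of 8 paraxial mesoderm markers were lower, with sums of 34.6 to 64.7 against 156 to 241 CPM, and 2 of 8 pluripotency markers were lower, with 102 to 139 against 188 to 236 CPM. Endothelial markers were higher for 6 of 11 tested, with 42.5 to 67.8 against 25.2 to 35.9 CPM and Emcn at 0 in DP Etv2-negative cells. Blood markers were higher for 5 of 8 tested, with 48.9 to 57.1 against 16.0 to 20.6 CPM; Hba-x was at 0 in both groups and Hbb-bh1 and Ptprc in DP Etv2-negative cells. In SP cells with the reporter, where mitotic genes were higher, 11 of 11 endothelial and 8 of 8 blood markers tested were higher, with sums of 149.7 to 283 and 179 to 309 CPM in SP Etv2-positive libraries. Of the 8 pluripotency markers 6 were lower (50.8 to 62.7 CPM), and of the 8 paraxial mesoderm markers 6 were lower and 1 higher (9.32 to 13.1 CPM). In DP cells the reporter went with 7 of 8 paraxial mesoderm markers lower and 1 higher (17.9 to 34.4 CPM in DP Etv2-positive libraries), 4 of 8 pluripotency markers lower (60.4 to 85.7 CPM), 6 of 11 endothelial markers higher (54.7 to 78.0 CPM) and 2 of 8 blood markers tested higher (45.0 to 52.1 CPM), with Hba-x and Ptprc at 0. Fibroblast feeder markers summed to 371 to 556 CPM in DP Etv2-positive and 65.4 to 171 CPM in DP Etv2-negative libraries, where 3 of 5 tested were higher with the reporter and Dcn and Lum were at 0 without it. They summed to 187 to 238 CPM in SP Etv2-negative (Lum at 0) and 215 to 287 CPM in SP Etv2-positive libraries (Dcn and Lum at 0), with 1 of 5 higher with the reporter in SP and 1 of 5 higher in SP over DP without it. Of 9 cardiac markers, 6 were higher and 2 lower with the reporter in DP, 3 higher and 3 lower with it in SP, and 2 higher and 1 lower in SP over DP without it. Their sums were 862 to 1027 CPM in DP Etv2-negative, 978 to 1043 CPM in DP Etv2-positive, 985 to 1100.2 CPM in SP Etv2-negative and 768 to 964 CPM in SP Etv2-positive libraries. Endoderm and neuroectoderm markers summed to 35.4 to 47.0 and 59.6 to 97.6 CPM in DP Etv2-negative, 26.7 to 33.4 and 87.0 to 113 CPM in DP Etv2-positive, 49.6 to 83.1 and 44.9 to 82.3 CPM in SP Etv2-negative, and 48.6 to 52.5 and 83.0 to 118 CPM in SP Etv2-positive libraries. Of 6 endoderm markers tested, 1 was higher and 2 lower with the reporter in DP, 2 and 2 in SP, and 3 higher in SP over DP without it. Of 3 neuroectoderm markers tested, 2 were higher and 1 lower with the reporter in either gate, and 1 higher and 1 lower in SP over DP without it. In WT cells, 11 of 12 endothelial markers were higher in SP than in DP, with 175 to 255 against 24.6 to 38.5 CPM, and 5 of 8 paraxial mesoderm markers lower, with 40.7 to 64.2 against 268 to 303 CPM. Blood markers were higher for 7 of 7 tested, with 204 to 261 against 31.3 to 39.6 CPM, Ptprc at 0 in both groups and Hba-x in DP. Feeder markers were higher for 1 of 5 tested, with 197 to 264 against 60.9 to 138 CPM, Lum at 0 in both and Dcn in DP. The part of these cell types in the differences of the members was not tested.

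Further genes of the same phases, listed apart from the 44, gave counts in the same comparisons. Of 51 other G2 and mitosis genes, 17 were lower and 1 higher in SP over DP cells without the reporter, 35.3% of the list beside 10.9% of all genes, led by Cdca2 (-0.47 ± 0.05, edgeR adjusted p = 0.000327), Cenpa (-0.43 ± 0.06, edgeR adjusted p = 0.00101), the centromeric histone, and Ube2c (-0.42 ± 0.07, edgeR adjusted p = 0.00255), the ubiquitin-conjugating enzyme of anaphase. In SP cells 24 were higher and 1 lower with the reporter, 49% beside 25.5% of all genes, led by Prc1 (0.72 ± 0.07, edgeR adjusted p = 4.65e-05), which bundles microtubules of the central spindle. Prc1 was also the largest of the 11 higher in DP cells (0.54 ± 0.07, edgeR adjusted p = 0.000146), where 5 were lower and the share called, 31.4%, was near the 30.7% of all genes. In iEtv2 over WT SP cells 6 were higher and 10 lower, 31.4% of the list and below the 50.8% of all genes; among them were Pbk at -0.93 ± 0.08 (edgeR adjusted p = 5.02e-06) and Ckap2 at 0.56 ± 0.06 (edgeR adjusted p = 2.81e-05). Their medians were -0.16 for the gate without the reporter and 0.19 for the reporter in SP, beside 0.00137 and -0.01 over all genes.

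Of 30 other S phase genes, 15 were lower and 2 higher in iEtv2 over WT SP cells, led by Mcm10 (-0.57 ± 0.06, edgeR adjusted p = 2.2e-05), a factor of replication initiation. These are 56.7% of the list, beside 50.8% of all genes called there in either direction and 24.4% called lower. Of the 30 genes 24 had negative log2 fold changes, with a median of -0.23 against 0.0019 over all genes. In DP cells 8 were lower with the reporter and 1, Tk1 (thymidine kinase, 0.51 ± 0.09, edgeR adjusted p = 0.000777), was higher. This is 30% of the list, beside 30.7% of all genes called in either direction and 14.7% called lower. Of these 30 S phase genes 20 had negative log2 fold changes. Of 23 other G1 regulators, 9 were lower and 7 higher in iEtv2 over WT SP cells, 69.6% of the list beside 50.8% of all genes. Myc, a transcription factor that drives growth and G1 progression, was lower at -1.83 ± 0.17 (edgeR adjusted p = 7.93e-06) and Cdkn1c (p57), a further kinase inhibitor, at -1.38 ± 0.24 (edgeR adjusted p = 0.00062), while Ccng2, a cyclin found in arrested cells, was higher at 1.67 ± 0.13 (edgeR adjusted p = 1.94e-06). In SP over DP cells without the reporter, Mycn was lower (-0.60 ± 0.08, edgeR adjusted p = 0.000848) and Myc higher (0.57 ± 0.09, edgeR adjusted p = 0.00186), and Mycn also had a different reporter effect between the gates (0.81 ± 0.12, edgeR adjusted p = 0.0106). Rb1, which encodes the retinoblastoma protein, was lower with the reporter in DP cells (-0.74 ± 0.11, edgeR adjusted p = 0.000231).

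Some counts cannot be assigned to a member alone. Cut into windows of 50 bases, the longest transcripts of Ccnb1, Pcna, Mcm7 and Cdc20 were 57.8, 67.3, 74.0 and 89.7% unique to the gene. In the reporter line Ccnb1-ps took 39.2 to 45.0% of the counts of the pair with Ccnb1, and Pcna-ps2 57.1 to 61.8% of those with Pcna, against 0.367 to 0.668% and 19.1 to 21.8% in the second set. With each of the 4 summed with its pseudogene, the Ccnb1 call for SP over DP with the reporter (-0.21 ± 0.06, edgeR adjusted p = 0.0413) was lost and the other 93 of 94 calls were kept. Genes on the opposite strand overlap exons of 15 members, by 500 bases or more for 7 of them, among them Ccnd1 (1100 bases, LTO1) and Kif20a (1271 bases, Cdc23). The strand setting of the counting is not given in the sources used here, so reads from either strand of these stretches cannot be told apart.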

How the data were processed

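Total RNA of 21 sorted samples was sequenced from stranded total RNA libraries, per the labels' protocols. Values are whole-number counts for each Ensembl gene, not normalised, that the authors deposited as 1 table for the 12 reporter-line libraries and 9 separate files. Per the submitters' processing notes these came from featureCounts on mm10; the summary entries in the 9 files are of a kind STAR writes, so the tool is in doubt there. Aligner, annotation, versions and strand setting are not given in the sources used here. The summary entries (3.95 to 5.25% unmapped, 7.34 to 8.75% multimapping, 5.04 to 7.91% in no feature and 4.30 to 4.91% ambiguous, as a percent of all reads) entered neither library sizes nor tests.

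Symbols were matched for 55141 of 55487 IDs; coordinates, exon lengths and biotypes came from GENCODE M21 (GRCm38) and promoters from RefSeq (GRCm38.p6). The sets were fitted apart in R 4.3.3 with edgeR 4.0.16: TMM factors, filterByExpr defaults, quasi-likelihood fits on the groups of a set and two-sided tests, adjusted by Benjamini-Hochberg over 17690 and 16288 genes. A standard error is the size of the log2 fold change over the root of its F statistic. The code was tested on simulated data. Members, gene lists and rules were chosen with earlier results of these data known. All 44 members may be named; values of every library are given for up to 6 members per class with the largest called change, and for Cdkn1a, Cdkn1b, Cdkn2c and Ccnd1 to Ccnd3. Of the pathway lists, the 3 called genes with the largest change per comparison and class may be named. Other members given by library were chosen after their values were seen.

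Replicate numbers, from the labels, were taken to pair libraries where each correlation of same-numbered libraries after removal of group means was over 0.1; this held for the reporter in DP (0.306 to 0.486) and in SP (0.199 to 0.428). The main tests have no block. Alternatives were RLE, upper-quartile and library-total scaling, no filter, a minimum of 1 CPM in 3 libraries, fits with DESeq2 1.42.0, with the replicate number as a block or on the compared groups alone, removal of mitochondrial, ribosomal RNA and pseudogene entries, each library left out, and, for the reporter line, both libraries of high ribosomal RNA share left out; summing members with their pseudogene was chosen after seeing the data. Summaries and figures used Python 3.11.15, numpy 2.4.6, pandas 2.3.3 and matplotlib 3.10.9.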

Additional observations from a re-analysis of the deposited data

Results flagged for a closer look

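For 6 members the effect of the Etv2 reporter differed between the SP and DP gates in an interaction test (edgeR quasi-likelihood, Benjamini-Hochberg over 17690 genes, 3 libraries per group). They are 13.6% of the 44 members, beside 3.97% of all genes. The difference, SP minus DP on the log2 scale, was 0.30 for Bub1, 0.30 for Aurka, 0.32 for Plk1 and 0.34 for Aurkb, all mitotic kinases. It was 0.29 for Mcm2, a subunit of the replicative helicase. For Ccnd2, a D-type cyclin, the difference had the opposite sign, at -0.64. Each of these 6 calls was lost in at least 8 of the 12 fits that left out 1 library.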

How the results depend on the processing

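Of the 94 called member results, 52 were kept under every alternative and library left out, and no call changed sign. RLE scaling kept 92, upper-quartile scaling 87, library totals 80, no filter 79, the minimum of 1 CPM 94, DESeq2 94, and removal of mitochondrial, ribosomal RNA and pseudogene entries 94. Fits of only the compared groups kept 73 of 88, and without the pair of libraries with much ribosomal RNA 41 of 67 were kept. The causes were not tested, beyond the fewer libraries in the last 2.

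Counts of members called moved by more than 1.5 times as follows. With only the compared groups, the reporter in DP had 6 higher, SP over DP without the reporter 3 higher, and with it 1 higher and 1 lower. With no filter, the reporter in SP had 4 lower, and SP over DP 5 higher without the reporter, 4 higher with it and 5 higher in WT. The interaction had 3 higher under upper-quartile scaling, 3 under library totals and 8 with DESeq2, which also gave 5 higher for WT SP over DP. Library totals left 11 lower in iEtv2 over WT SP. Without that pair, SP over DP had 9 lower without the reporter and 0 higher and 2 lower with it, and the interaction 0 higher and 0 lower.

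With a replicate block (pairing by number), 93 of 94 calls were kept, the Mcm2 call for the reporter in DP was lost and 17 were gained. The blocked counts were 2 higher for SP over DP without the reporter, and 5 higher and 5 lower in WT; the block moved no other count by over 1.5 times. In SP over DP, same-numbered libraries correlated at 0.0923 to 0.471 without and 0.0356 to 0.339 with the reporter, and 0.0486 to 0.496 in WT. Libraries of different numbers there correlated at -0.435 to 0.101, -0.312 to 0.138 and -0.564 to 0.198. For iEtv2 over WT SP the ranges were -0.139 to 0.243 and -0.314 to 0.333. The lowest same-numbered value was under 0.1 in each, so these libraries were not taken as paired. Whether they are paired is not settled by these values.

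Leaving out 1 library gave, higher and lower, 5 to 11 and 7 to 11 for the reporter in DP, 11 to 17 and 1 to 3 in SP. SP over DP gave 0 to 2 and 9 to 18 without the reporter, 0 to 3 and 1 to 6 with it, and 3 to 4 and 2 to 4 in WT. The interaction gave 0 to 6 and 0 to 1, and iEtv2 over WT SP 4 to 4 and 10 to 20.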
